A study of Mus musculus with 4 samples.

Results

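The SFRP5 transgene was compared with wild type (WT) in CLP cells, the Lin- c-kitLo Sca-1Lo IL7Rα+ fraction of adult mouse bone marrow. This gate is meant to enrich for common lymphoid progenitors. The comparison uses 2 of the 4 arrays of the series, the array titled SFRP5 CLP and the array titled WT CLP, with 1 array on each side. It covers 15255 autosomal genes that were well above background on both arrays, of 24278 genes with a symbol on the array. The SFRP5 array carried RNA of SFRP5-transgenic mice and the WT array RNA of their littermates without the transgene. The other 2 arrays hold Lin- c-kitHi Sca-1+ (LSK) cells, a stem and multipotent progenitor fraction, of the same genotypes. RNA came from freshly isolated cells and was amplified from 6.1 ng of total RNA into Cy3-labelled cDNA. The sources used here do not give the promoter or sequence of the transgene, the exact age, number or sex of the mice, or whether mice were pooled.

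SFRP5 is a secreted protein that binds Wnt ligands and keeps them from their Frizzled receptors. Common lymphoid progenitors give rise to B, T and natural killer cells and begin to rearrange antigen receptor genes before they commit to a lineage. The series asks, per its own design text, which genes SFRP5 expression regulates.

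Levels are log2 intensities minus that of the array's 75th percentile, and a difference is the SFRP5 level minus the WT level on that log2 scale. A gene counts as higher or lower when it differs by at least 2-fold, a log2 difference of 1. Since each group is 1 array, there is no replicate check and no test, and "higher" and "lower" describe these 2 arrays. The spread that can be measured is that between repeated spots of 1 probe on 1 array, a median SD of 0.06 log2 above the 75th percentile, 0.12 at levels from -3 to 0 and 0.29 (WT) or 0.26 (SFRP5) at -3 and below. It holds neither the spread between mice nor that of sorting or amplification.

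The labels were checked first. Il7r, which encodes the IL-7 receptor chain of the sort gate, stood at 2.52 on the WT CLP array and 3.13 on the SFRP5 CLP array, against -0.51 and 0.89 on the WT and SFRP5 LSK arrays. Rag1, a recombinase of antigen receptor genes, stood at 1.22 and 2.56 in CLP and at -1.49 and -1.70 in LSK. Kit, the stem cell factor receptor, went the other way, with 2.75 and 3.47 in CLP and 5.08 and 5.18 in LSK. Ly6a, which encodes Sca-1, was also lower in CLP, with -0.84 and -0.70 against 1.35 and 1.02. The order of the gate genes Il7r, Kit and Ly6a between the sorts thus follows the gates in both genotypes. Flt3, a cytokine receptor of early lymphoid progenitors, was lower in CLP (0.24 and 0.32) than in LSK (2.95 and 3.10). Markers of other lineages were also well above background on both CLP arrays, among them all 12 eosinophil genes, 24 of 25 granulocyte-monocyte progenitor genes, and 45 of 47 erythroid genes on all chromosomes, with 1 more on the SFRP5 array alone. Median levels on the WT and SFRP5 CLP arrays were 4.36 and 4.51 for eosinophil genes and 3.64 and 3.24 for erythroid genes. For granulocyte-monocyte progenitor genes they were 2.92 and 3.17. Those of B lineage genes (1.81 and 2.29) and early lymphoid genes (0.89 and 1.06) were lower. How much of the RNA came from lymphoid progenitors was not tested. In such bulk RNA, fewer cells of a type and less RNA per cell cannot be told apart.

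Sfrp5 itself was at -0.02 on the WT array and -0.00 on the SFRP5 array, a difference of 0.02. The sources used here do not say whether that mouse probe detects the transgene transcript. Xist, the noncoding RNA of X inactivation, was at 4.50 on the SFRP5 array and not well above background on the WT array. The 4 Y-linked genes were lower on the SFRP5 array, from Kdm5d (-1.03) and Ddx3y (-1.52) to Eif2s3y (-1.70) and Uty (-2.26). They were still well above background there, with Eif2s3y at -1.37, Ddx3y at -1.55, Uty at -3.88 and Kdm5d at -3.99. The 2 arrays thus differ in sex-linked expression as well as in genotype, and these cannot be told apart. Genotype also coincides with the column of the slide that the arrays lie in. Only autosomal genes are described from here on, and genes named beyond the rule in the processing notes were chosen after their values were seen.

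Over all 15255 genes, 654 were at least 2-fold higher on the SFRP5 array (4.29%) and 661 at least 2-fold lower (4.33%), together 8.62%. The median difference was -0.04, the 5th percentile was -0.95 and the 95th 0.93, and 46.5% were above 0. Differences of this size had their highest share among dim genes. Of genes with a mean level from -3 to -1, 16.7% differed by at least 2-fold, against 2.37% of genes with a mean level from 1 to 3 and 1.07% at 3 and above. Among the 7880 genes whose brighter array reached its 75th percentile, 182 were higher (2.31%) and 156 lower (1.98%). A gene can enter this set through the SFRP5 array alone, with a difference above 0, or through the WT array alone, with a difference below 0. A further 178 named genes were higher and 196 lower by at least 2-fold as a lower bound, because they were above background on 1 array alone.

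**Figure D1:**
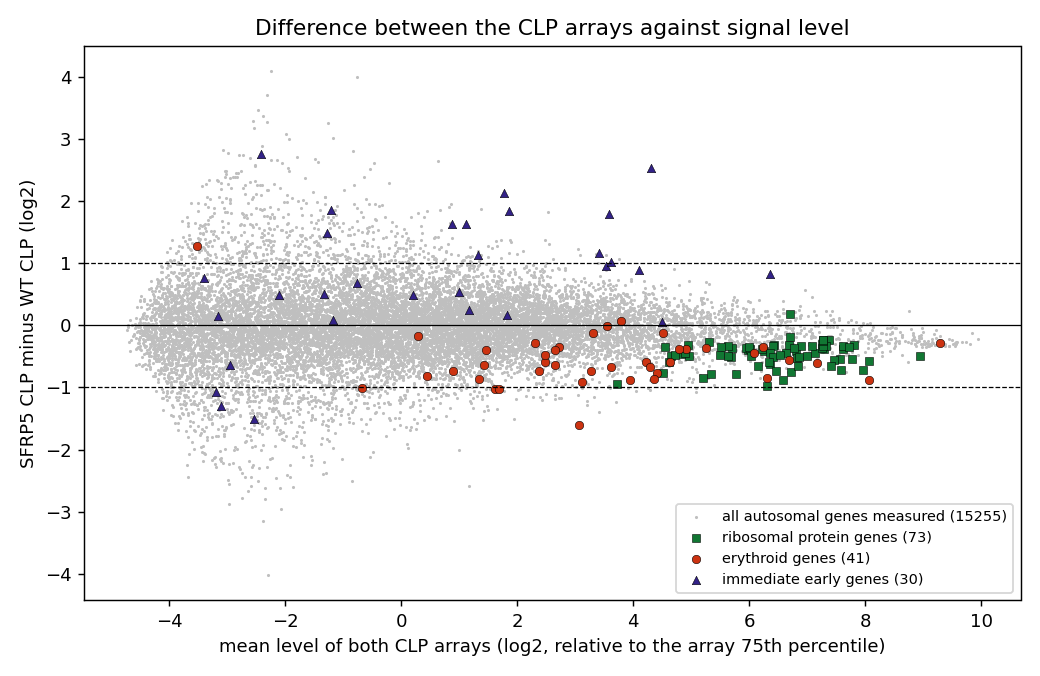
Log2 difference between the SFRP5 and WT CLP arrays against the mean level of both arrays, for all 15255 autosomal genes measured (grey) and for 3 gene lists (symbols), with dashed lines at 2-fold. Grey points spread most at low levels, the 17 brighter immediate early genes all lie above 0, and 72 of 73 ribosomal protein genes and 39 of 41 erythroid genes lie below 0.

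The highest median of the 45 lists was that of the immediate early genes, which encode transcription factors and feedback regulators that cells transcribe within minutes of a stimulus. Of 34 on the list, 30 were measured, 1 (Arc) was above background on the WT array alone, and Fosl1, Nr4a3 and Ccn1 on neither. Of the 30, 12 were at least 2-fold higher, against 4.29% of all genes, 3 were at least 2-fold lower, against 4.33%, and 15 lay within 2-fold. Their median was 0.79, against -0.04 over all genes, and 26 lay above 0. The median ran from 0.60 to 1.02 over 11 settings of normalization, filter and probe choice. It was 0.21 over the next probe of the gene, which only 4 members have. The list was known to stand high on these arrays when it was chosen for this comparison, so its direction is a description.

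The FOS and JUN families form the dimers of the transcription factor AP-1. Fosb, on chromosome 7, was at 3.05 on the WT array and 5.57 on the SFRP5 array, 5.77-fold higher. Fos was at 0.95 and 2.79, a difference of 1.84. Jun, its main partner, was at 0.76 and 1.89, a difference of 1.13. These 3 genes were at least 2-fold higher, while Jund (5.94 and 6.77, difference 0.83), Fosl2 (0.25) and Junb (0.09) differed by less. Fosl1, the remaining member of the family on the list, was not well above background on either array. Atf3, a stress-induced partner of AP-1 proteins, had the highest difference of the list, 2.76, from a dim -3.79 to -1.03.

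The 3 zinc finger transcription factors of the KLF family on the list were higher. Klf2, which keeps lymphocytes quiescent, stood at 0.71 on the WT array and 2.83 on the SFRP5 array, 4.37-fold higher. Klf4 stood at 0.06 and 1.70 and Klf6 at 2.83 and 3.99, differences of 1.64 and 1.16. The EGR family did not move together, with Egr1 at 0.96 (3.06 and 4.02), Egr3 at -0.65 and Egr2 at -1.07. The nuclear receptor Nr4a1, a read-out of antigen receptor signalling in lymphocytes, was at 0.31 and 1.94, a difference of 1.63. Nr4a2 gave 1.86 on its brighter probe and -0.86 on its next probe, so its direction depends on the probe.

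The feedback regulators were mixed. Zfp36, which promotes decay of inflammatory mRNAs, was at 2.69 and 4.48, a difference of 1.79. The phosphatase genes Dusp1 (3.10 and 4.12, difference 1.02) and Dusp2 (3.66 and 4.54, difference 0.88) dephosphorylate MAP kinases. Dusp5, another MAP kinase phosphatase, was lower, at -2.46 and -3.76, as was Ier5 at -1.78 and -3.28. Csrnp1 (1.48), Ier3 (0.68), Ier2 (0.51), Btg2 (0.49) and Gadd45b (0.49) lay above 0, as did Maff (0.76), Rhob (0.53), Myc (0.17), Ptgs2 (0.15) and Mcl1 (0.06).

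The 3 lower members, Ier5, Dusp5 and Egr2, were all dim, with WT levels below -1.5, and 2-fold differences are most frequent among dim genes. Among the 12 higher members, Atf3 (-3.79), Nr4a2 (-2.14) and Csrnp1 (-2.01) had WT levels below -1.5 too. Of the 17 members whose brighter array reached its 75th percentile, 9 were at least 2-fold higher, against 2.31% of all genes in that range, 0 were lower, and all 17 lay above 0. Btg2 (-0.04 and 0.45) is among the 17 through the SFRP5 array alone, which fixes its direction. With background correction by normexp 11 of 30 were higher and 0 lower. In the LSK pair, which shares no array with the CLP pair, 12 of the 30 measured were at least 2-fold higher, against 6.62% of all genes there, 0 were lower, against 7.14%, and the median was 0.71. Fosb (3.0), Klf4 (2.5), Fos (2.41), Klf6 (1.46), Csrnp1 (1.44), Dusp1 (1.32), Klf2 (1.28), Zfp36 (1.12) and Jun (1.04) were at least 2-fold higher there too. Nr4a1 (0.82), Atf3 (0.38) and Nr4a2 (0.05), the others of the 12, lay within 2-fold in LSK. Btg2 (1.76), Ier2 (1.72) and Jund (1.33) were at least 2-fold higher in LSK and within 2-fold in CLP. The difference between the sorts has no test. The number and pooling of mice are not given, so the same mice may have given both pairs, and genotype coincides with the slide column. The LSK pair is thus no replicate of the CLP pair.

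**Figure D2:**
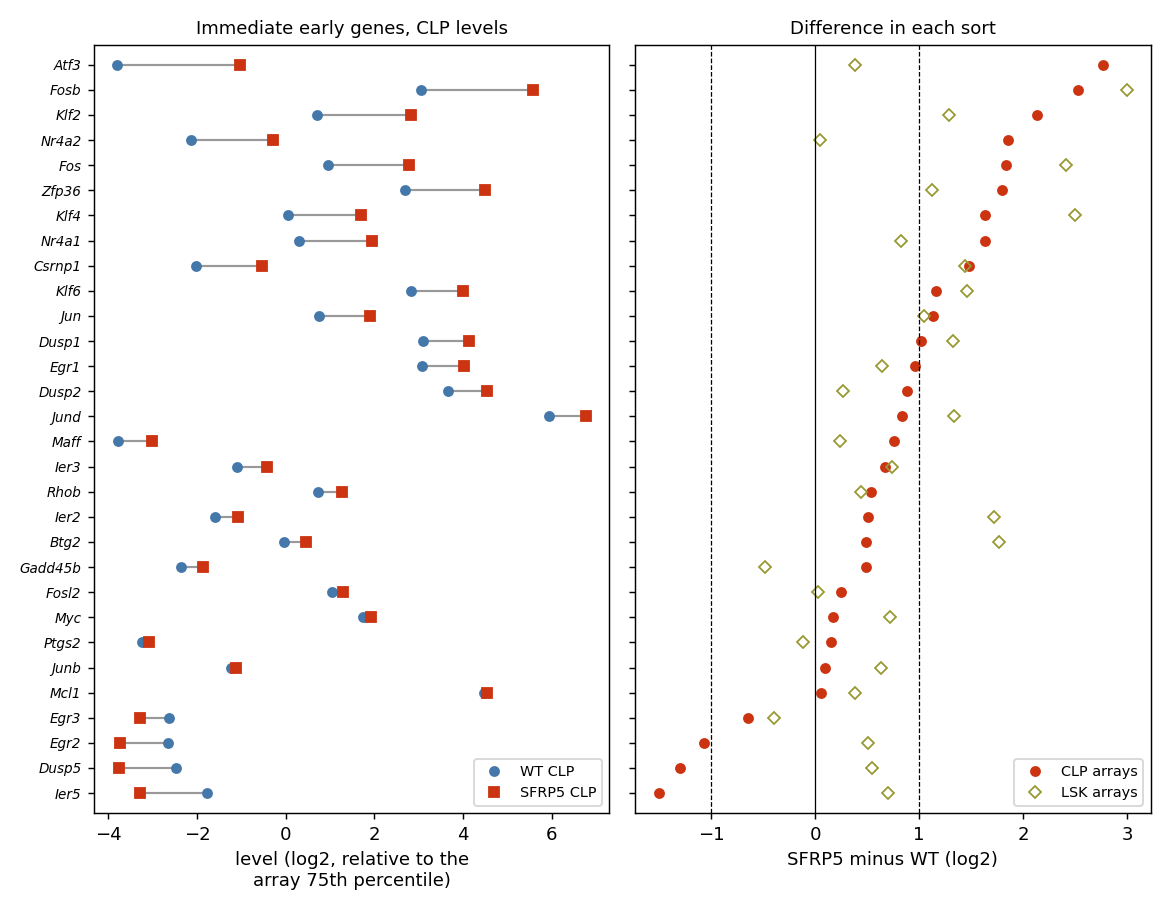
Left, log2 level of the 30 measured immediate early genes on the WT (blue circles) and SFRP5 (red squares) CLP arrays, ordered by their difference. Right, the SFRP5 minus WT difference of the same genes in the CLP pair (red circles) and the LSK pair (open diamonds), with dashed lines at 2-fold. 12 genes lie past 2-fold on the right in CLP, from Dusp1 at 1.02 to Atf3 at 2.76, and 3 lie past 2-fold on the left.

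Immediate early promoters are known for 2 DNA elements, the CArG box that binds serum response factor and the cAMP response element (CRE, TGACGTCA) that binds CREB and ATF proteins. Both were searched on both strands, with the AP-1 site TGANTCA, which does not overlap the CRE as spelled here, in 300-base windows from 250 bases before to 50 bases after each RefSeq start site (GRCm38.p6). Of 35 start sites of the 26 immediate early genes with an entry, 17.1% held a CArG box, against 1.29% of 14167 start sites of all autosomal genes measured. A CRE was found in 8.57%, against 2.78%, and an AP-1 site in 2.86%, against 5.80%. Counted by gene, since a gene can have several start sites, 3 of 26 held a CArG box (11.5%), against 1.54% of all genes, and 3 of 26 a CRE (11.5%), against 3.26%. The CArG box lay in Zfp36, which was higher, and in Dusp5 and Egr2, which were lower, and the CRE in Dusp1, Maff and Btg2, which lie above 0. For either element, 2 of the 12 that were at least 2-fold higher held a CRE or CArG box (16.7%) and 4 of the other 14 did (28.6%), against 4.73% of all genes. To show members with an element on both sides of 0, 4 promoters are printed, of Zfp36 and Dusp1, which were higher, and of Dusp5 and Egr2, which carry CArG boxes and were lower. The stretches are the 250 bases before the start site, at chr7:28379229-28379478, chr17:26508473-26508722 (both on the minus strand), chr19:53528895-53529144 and chr10:67537316-67537565 (both on the plus strand), from RefSeq and written 5′ to 3′ along the gene. Capitals mark the element, which begins at position -58 from the start site of Zfp36 (CArG box), -143 of Dusp1 (CRE), -82 and -72 of Dusp5 (adjoining CArG boxes) and -72 of Egr2 (CArG box). A match of letters is a description of the sequence and not evidence of binding in these cells. Of Egr2, 1 of 5 start sites in the table is shown.
Zfp36: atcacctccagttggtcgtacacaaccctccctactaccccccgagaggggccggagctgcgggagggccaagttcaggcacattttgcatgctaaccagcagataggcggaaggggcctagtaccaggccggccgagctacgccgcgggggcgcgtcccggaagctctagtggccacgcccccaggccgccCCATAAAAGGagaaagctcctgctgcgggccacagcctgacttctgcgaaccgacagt
Dusp1: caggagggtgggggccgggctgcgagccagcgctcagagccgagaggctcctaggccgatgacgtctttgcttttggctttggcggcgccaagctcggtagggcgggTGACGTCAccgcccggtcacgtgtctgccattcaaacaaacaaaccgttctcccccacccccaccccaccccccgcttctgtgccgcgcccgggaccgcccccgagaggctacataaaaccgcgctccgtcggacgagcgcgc
Dusp5: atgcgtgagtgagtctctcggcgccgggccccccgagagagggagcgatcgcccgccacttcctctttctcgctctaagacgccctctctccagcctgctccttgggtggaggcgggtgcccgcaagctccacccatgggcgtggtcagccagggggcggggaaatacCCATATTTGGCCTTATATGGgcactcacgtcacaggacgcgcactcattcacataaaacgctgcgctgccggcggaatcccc
Egr2: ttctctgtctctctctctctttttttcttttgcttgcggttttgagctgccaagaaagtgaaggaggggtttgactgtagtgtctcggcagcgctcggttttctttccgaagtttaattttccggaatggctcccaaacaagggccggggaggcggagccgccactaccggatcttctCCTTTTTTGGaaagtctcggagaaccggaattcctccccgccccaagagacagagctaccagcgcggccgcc

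A separate list of MAPK feedback genes, which does not hold Dusp1, Dusp2 or Dusp5, lay above 0 on the probe that stands for each gene. All 11 measured members were above 0, against 46.5% of all genes, with a median of 0.57, and 2 were at least 2-fold higher, against 4.29%. Without the filter on dim probes 2 of 15 lay below 0, and of the next probes of 2 members 1 did. Phlda1 was at -2.65 on the WT array and -1.2 on the SFRP5 array, and Dusp16, a phosphatase of JNK and p38, at -2.22 and -1.04. The brightest members were within 2-fold. Dusp6, the ERK phosphatase, was at 3.40 and 3.98, a difference of 0.58, and Spred1 and Spry2, inhibitors of the RAS pathway, differed by 0.50 and 0.32. Etv4 and Etv5, transcription factors induced by ERK signalling, differed by 0.69 and 0.57. Dusp4 was above background on the SFRP5 array alone, and Spry4, Spred3 and Errfi1 on neither. In LSK the median of the list was 0.03, with Phlda1 at -1.59.

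Of 20 NF-kB pathway genes, 13 lay within 2-fold, 5 above it, against 4.29% of all genes, and 2 below it, against 4.33%, with a median of 0.50 that ran from 0.26 to 0.82 over the settings. It was -0.04 over the next probe of 5 members. The upper end of 0.82 is over brighter genes, among them Ccl4, which entered through the SFRP5 array alone. Cd69, an early activation antigen that retains lymphocytes in tissue, was at 1.62 and 3.44, a difference of 1.82. The chemokine gene Ccl4 was at -0.34 and 1.02, and Tnfaip3, which encodes the inhibitor A20, at 0.85 and 2.14. Inhibitors of the IκB family lay above 0, with Nfkbid at 1.2, Nfkbiz at 1.13, Nfkbie at 0.85 and Nfkbia at 0.78. The subunits Nfkb1 (0.38), Rela (0.02), Relb (-0.26) and Nfkb2 (-0.36) lay within 2-fold. The cytokine genes Tnf (-1.45) and Il1b (-1.01), both dim, were lower. In LSK, where 20 were measured too, 6 lay above 2-fold, against 6.62% of all genes there, and 1 below it, against 7.14%. The median there was 0.46, with Cd69 at 1.24, Ccl4 at 1.22 and Tnf at 1.61.

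Heat shock and interferon genes had medians near 0 on the probe that stands for each gene. Their counts stand beside 4.29% higher and 4.33% lower over all genes. Of 16 heat shock chaperone genes, 1 was at least 2-fold higher, Hspa1a, the inducible HSP70, at -4.34 and -2.01, and 0 were lower. Their median of -0.06 was above 0 in 3 of 11 settings, and the abundant chaperones Hsp90ab1 (-0.17), Hspe1 (-0.45) and Hspa8 (-0.51) lay below 0. Of 30 interferon-stimulated genes, 1 was higher (Mx1, an antiviral GTPase, at 1.5) and 3 were lower, with a median of 0.08 that was below 0 in 2 of 11 settings and was -0.91 over the next probe of 6 members, 5 of them below 0. Irf7, the regulator of type I interferon genes, was at -0.77 and -2.67, a difference of -1.90, Ifit3 was at -1.2 and Isg20, a ribonuclease, was at 4.58 and 3.52, a difference of -1.06 that its next probe repeated (-1.12).

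The lymphoid programmes of the sort stood slightly above 0. Of 32 B lineage genes measured (Ms4a1 and Il2ra were not above background on either array), 5 were at least 2-fold higher, against 4.29% of all genes, 0 lower, against 4.33%, and 28 lay above 0, against 46.5%. Their median was 0.39, from 0.32 to 0.55 over the settings, and 0.61 over the next probe of 11 members, 9 of them above 0. The upper end of 0.55 is over brighter genes, among them Spib, which entered through the SFRP5 array alone. Lyn, a SRC family kinase of B cell receptor signalling, was at -2.01 and -0.23, a difference of 1.78. The lymphoid transcription factor Spib was at -0.47 and 0.89, and Erg at 0.18 and 1.36. Rag1 gave 1.33 on its brighter probe and 0.91 on the next. Ebf1, the factor that specifies the B lineage, was at -1.04 and 0.08, a difference of 1.12.

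Other transcription factors of the list differed by less than 2-fold. Foxo1 was at 1.22 and 1.93, with 0.71 on that probe and 1.02 on the next, and Bach2 at 1.79 and 2.75, with 0.97 and 1.0. Lef1, which is also an effector of Wnt signalling, gave 0.77 and 0.97. Pou2af1, a coactivator of immunoglobulin transcription, was at 4.90 and 5.60 and Pax5, the B cell commitment factor, at 2.32 and 2.52. Tcf3, which encodes the E2A proteins that act with Ebf1, lay below 0 on both probes, at -0.37 and -0.38. The brightest B lineage genes differed little. Dntt, the polymerase that adds bases at antigen receptor joints, was at 6.68 and 7.25, a difference of 0.57, and the surrogate light chain genes Vpreb1 (5.45 and 5.65) and Igll1 (3.46 and 3.56) differed by 0.20 and 0.10. Cd79a, a signalling chain of the B cell receptor, gave 0.27 and, on its next probe, -0.25. The lowest member was Fcrla at -0.47. In LSK 25 of these genes were measured, with a median of 0.48 and 17 above 0. Vpreb3, a chaperone of the pre-B receptor, differed by 1.96 there and Pax5 by -1.74, while Ebf1 and Spib were not well above background on both LSK arrays.

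Of 29 early lymphoid genes, 1 was at least 2-fold higher (Rag1), against 4.29% of all genes, and 2 lower, against 4.33%. The other 26 lay within 2-fold, and the median was 0.31. Rag2 was at 2.22 and 2.67 and gave 1.79 on its next probe. Ikzf2 was at 4.03 and 4.67, Gfi1 at 3.0 and 3.62, and Satb1, a chromatin organiser of lymphoid progenitors, at -0.59 and 0.10. The lower members were Ccr7, a homing receptor, from a dim -2.44 to -4.38, and Ikzf3, which encodes Aiolos, from -0.82 to -1.86. Ly6d, which marks progenitors committed to the B lineage, differed by -0.65 and the thymic homing receptor Ccr9 by -0.58. The gate genes Kit (0.72), Il7r (0.61), Ly6a (0.14) and Flt3 (0.08) lay above 0 on the probe that stands for them (median of the 4 genes 0.38), and the next probe of Flt3 gave -0.56.

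T and natural killer genes were mostly dim and went both ways. Their counts stand beside 4.29% higher and 4.33% lower over all genes. Of 23 T lineage genes 3 were at least 2-fold higher, among them Zap70 (1.05) and Gimap3 (1.0), and 1 lower, Gimap5 (-1.62), with a median of 0.22, or -0.49 over the next probe of 5 members. Zap70, a kinase of T cell receptor signalling, gave 1.06 on its next probe. Cd3d was above background on the WT array alone and Cd3g, Cd2, Cd8a, Cd8b1 and Themis on neither. Of 19 natural killer and innate lymphoid genes, 2 were higher (Klrb1b at 1.33 and Gzmb at 1.11) and 1 lower (Gzma, from -2.35 to -4.43), with a median of -0.08 that was above 0 in 1 of 11 settings.

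Erythroid genes were the lowest of the 45 lists by their median. Of 41 measured autosomal members, 39 lay below 0, against 53.5% of all genes. At least 2-fold, 4 were lower, against 4.33% of all genes, and 1 was higher, against 4.29%, while 36 lay within 2-fold. Their median was -0.60, from -0.61 to -0.46 over the settings. All 9 members with a next probe lay below 0 on it, with a median of -0.43. Summed over the list, the signal was 2073 times the 75th percentile on the WT array and 1461 times on the SFRP5 array, a ratio of 0.70. The 4 members at least 2-fold lower were Hbb-bs (-1.60), Alad (-1.03), Icam4 (-1.02) and Xpo7 (-1.02). Most members thus differed by little each and lay on the same side of 0.

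Haemoglobin genes were among them, although a probe of 1 globin gene may also pick up its near-identical copies, so which copy gave the signal is uncertain. Hbb-bs was at 3.86 on the WT array and 2.26 on the SFRP5 array, a difference of -1.60. Hba-a1 was at 8.50 and 7.63, Hbb-b1 at 6.74 and 5.88 and Hba-a2 at 7.47 and 6.86. Hbb-b2, which has no chromosome band in the files and is not counted, gave -0.86. All 5 globin genes were lower on the SFRP5 array, by 0.61 to 1.60 log2. Enzymes of haem synthesis followed, with Alad (2.13 and 1.11), Urod (4.80 and 4.03), Ppox (2.74 and 2.0), Fech (3.64 and 2.91), Uros (1.25 and 0.53) and Cpox (4.98 and 4.60) all below 0. The next probe of Uros (-0.62) also lay below 0.

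The regulators of red cell development differed in the same direction. Klf1, the erythroid Krüppel-like factor, was at 2.78 and 2.18, a difference of -0.60, Epor, the erythropoietin receptor, at 2.97 and 2.33, and Gfi1b at 1.75 and 1.12. Tal1 (-0.34), Nfe2 (-0.40), Zfpm1 (-0.28) and Lmo2 (-0.12), which act in earlier progenitors too, differed by less. Membrane and skeleton genes ranged from Icam4 (2.20 and 1.18, difference -1.02) and Rhd (-0.67) through Slc4a1, the band 3 anion exchanger (6.97 and 6.42), and Ank1 (5.10 and 4.72) to Epb42 (-0.17). Hemgn, the brightest of the list with 9.42 and 9.14, differed by -0.28. The exceptions above 0 were Tmod1 (1.28), which is dim at -4.16 and -2.89, and Slc25a37, the mitochondrial iron importer, at 0.07 and, on its next probe, -1.21. Sptb was above background on the SFRP5 array alone. The X-linked genes Gata1 (-0.66) and Alas2 (-0.93), not counted here, were also below 0.

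In LSK 36 erythroid genes were measured, with a median of -0.04 and 19 below 0. The shift was thus seen in the CLP pair and not in the median of the LSK pair, a difference that has no test. Whether the share of erythroid cells in the sorts differed was not tested.

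The GATA element AGATAA, which binds the erythroid factor GATA1, was found on either strand in 31.2% of 32 start sites of the 27 erythroid genes with a RefSeq entry, against 7.42% of 14167 start sites of all genes measured. Immediate early start sites held it in 8.57%. Hbb-bs and Icam4 are printed because they had the lowest differences among the members with the element before the start site. Capitals mark the element, which begins at position -210 from the start site of Hbb-bs (chr7:103827929-103828178, minus strand) and -43 of Icam4 (chr9:21029182-21029431, plus strand, on which it reads in reverse), in the 250 bases before the start site (GRCm38.p6, RefSeq).
Hbb-bs: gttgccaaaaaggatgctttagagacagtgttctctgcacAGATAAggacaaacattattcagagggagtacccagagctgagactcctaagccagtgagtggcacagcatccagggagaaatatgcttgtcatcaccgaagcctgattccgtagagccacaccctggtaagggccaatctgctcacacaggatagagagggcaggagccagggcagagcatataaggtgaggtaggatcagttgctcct
Icam4: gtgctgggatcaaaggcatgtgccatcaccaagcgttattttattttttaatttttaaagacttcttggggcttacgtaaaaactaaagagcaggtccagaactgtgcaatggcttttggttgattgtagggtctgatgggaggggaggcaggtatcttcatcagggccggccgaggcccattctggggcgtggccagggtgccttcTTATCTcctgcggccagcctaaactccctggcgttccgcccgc

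**Figure D3:**
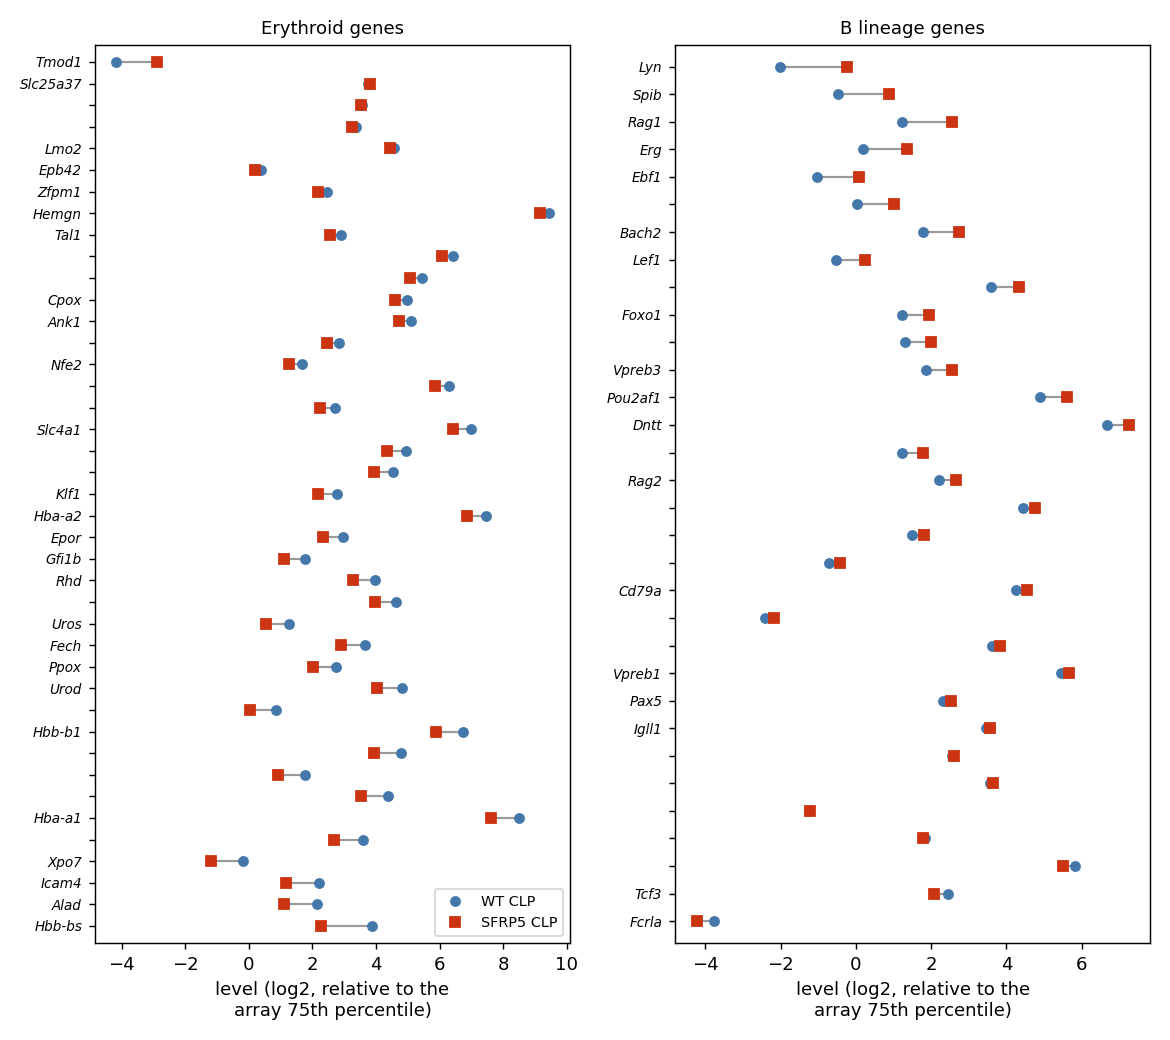
Log2 level of 41 erythroid genes (left) and 32 B lineage genes (right) on the WT (blue circles) and SFRP5 (red squares) CLP arrays, each panel ordered by the difference, with members described in the text labelled. The red squares lie left of the blue circles for 39 of 41 erythroid genes and right of them for 28 of 32 B lineage genes.

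Other myeloid lineages gave no such common shift. Of 24 granulocyte-monocyte progenitor genes all lay within 2-fold, with a median of 0.09. Mpo, the myeloperoxidase gene, was at 7.31 and 7.55, Csf3r, the G-CSF receptor, at 8.03 and 8.05, and Cebpa, the factor required for granulocyte-monocyte progenitors, at 2.40 and 1.68. Of 17 neutrophil genes 1 was higher (Cd177, 1.40) and 3 lower, against 4.29% and 4.33% of all genes, with a median of -0.21. Those 3 were granule or secreted proteins, Camp (0.53 and -1.51, repeated by its next probe at -1.81), Chil3 (-0.58 and -2.16) and Ngp (0.56 and -0.95), while S100a9 (4.01 and 3.42) differed by -0.59 and Lcn2 by 0.02.

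Of 22 monocyte and macrophage genes 5 were higher and 2 lower, against 4.29% and 4.33% of all genes. Their median level was -1.19 on the WT array and -1.13 on the SFRP5 array. Among all genes with a mean level from -3 to -1, 16.7% differed by at least 2-fold. The median difference of the list was -0.04 and was above 0 in 5 of 11 settings. Marco, a scavenger receptor of macrophages, was at -3.93 and -1.96, Vcam1 gave 1.01 and, on its next probe, 0.11, and Lyz2 (-1.12) and C1qc (-1.31) were lower, all dim. Of 20 mast cell and basophil genes 1 was higher (Gzmb) and 1 lower (Cyp11a1, -1.43), with a median of -0.20, or 0.04 over genes above background on all 4 arrays. Prss34, a basophil protease, was at 5.34 and 4.79. Eosinophil genes had 0 of 12 higher and 1 lower (Alox15, -1.24) with a median of -0.09 that was above 0 in 2 of 11 settings. Their brightest members Prg2 (7.93 and 7.47) and Ear1 (5.67 and 5.58) differed by -0.46 and -0.09. Their median in LSK was 1.15.

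Among 28 dendritic cell and antigen presentation genes 1 was higher (Batf3, 1.64) and 2 lower (Tap1, -2.14, and Clec9a, -1.38), with a median of -0.22. Siglech, a surface marker of plasmacytoid dendritic cells, was at 5.08 and 4.90, with -1.28 on its next probe. Class I genes H2-K1 (0.40), B2m (0.25) and H2-D1 (0.23) lay above 0, and class II genes H2-Ab1 (-0.27), H2-Aa (-0.34) and Cd74 (-0.35) below it. Of 20 megakaryocyte and platelet genes 4 were higher and 1 lower, against 4.29% and 4.33% of all genes. The higher members were Thbs1 (1.37), F2rl2 (1.35), F2r (1.22) and Mmrn1 (1.14), and the lower member was Tubb1 (-2.08). The median of the list was -0.01 and was above 0 in 6 of 11 settings. Pf4, the platelet factor, was at 2.15 and 2.20. All 8 plasma cell genes lay within 2-fold, with a median of 0.27.

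Stem cell and stromal genes were mostly dim. Of 24 stem cell genes measured 4 were higher, against 4.29% of all genes, 20 within 2-fold and 0 lower, against 4.33%. Their median was 0.36, or -0.23 over the next probe of 9 members. Among all genes with a mean level from -3 to -1, 16.7% differed by at least 2-fold. Hlf, a transcription factor of stem cells, was at -4.17 and -0.46, a difference of 3.71, Hoxb4 at -2.76 and -1.12 and Prdm16 at -2.89 and -1.75. Of the 35 on the array, Procr, Robo4, Vldlr, Hoxa5 and Esam were above background on the SFRP5 array alone and none on the WT array alone. Over the 23029 autosomal genes counted without the filter on dim probes, 831 were above background on the SFRP5 array alone and 713 on the WT array alone. In LSK, where stem cells are sorted, 33 were measured, with a median of 0.14, and Hlf differed by -0.16. Of 12 stromal and endothelial genes 3 were higher (Bglap at 1.98, Adipoq at 1.57 and Col3a1 at 1.1), against 4.29% of all genes, and 2 lower (Pdgfrb at -2.17 and Alpl at -1.04), against 4.33%. Their median was 0.46, or -0.01 with normexp. Bglap has close paralogs, so the source of its signal is uncertain.

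Ribosomal protein genes lay almost all on 1 side of 0. All 73 measured lay within 2-fold, and 72 lay below 0, against 53.5% of all genes, with a median of -0.45. Rps27 was at 6.79 and 5.82, Rps19, whose human counterpart is mutated in Diamond-Blackfan anaemia, at 4.20 and 3.26, and Rplp1 at 7.03 and 6.15. Rps3 (6.61 and 6.80) alone lay above 0. Its next probe gave -0.36 and a further probe -0.37, both at higher levels on the WT array (7.11 and 7.07). Of 52 members with a next probe, 49 lay below 0 on it, with a median of -0.39. The size depends on the normalization, with a median of -0.22 after quantile normalization and -0.25 after cyclic loess. Many ribosomal protein genes have processed pseudogenes, so a probe may pick up more than 1 copy.

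Most respiratory chain and histone genes lay below 0 with them. Of 51 respiratory chain genes 47 lay below 0, against 53.5% of all genes, 0 were past 2-fold in either direction and the median was -0.35. Ndufa3, a complex I subunit, was at 3.56 and 2.63, Atp5e, a subunit of ATP synthase, at 6.62 and 5.76, and Cox8a at 5.55 and 4.74, while Ndufs1 (3.05 and 3.26), the largest complex I subunit, lay at 0.20. Of 20 histone genes 15 lay below 0, against 53.5% of all genes. At least 2-fold, 1 was higher, against 4.29% of all genes, and 3 lower, against 4.33%, with a median of -0.49. H2ac20 was at 7.94 and 7.47, H4c4 at 7.28 and 6.61, and H2bc3 at 3.63 and 2.62, while H2ac6 was at -1.83 and -0.18. Replication-dependent histone genes are close copies of each other, which leaves the source of each signal uncertain.

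Gene span moves with these values. Among genes whose brighter array reached its 75th percentile, the median difference was -0.30 for genes that span under 3 kb in the RefSeq table, -0.16 from 3 to 6 kb, -0.12 from 6 to 12 kb, -0.07 from 12 to 25 kb, 0.03 from 25 to 50 kb, 0.12 from 50 to 100 kb and 0.16 at 100 kb and over. The median span was 3.17 kb for ribosomal protein genes, 7.51 kb for respiratory chain genes and 0.50 kb for histone genes. Without the ribosomal protein and respiratory chain genes, 406 of 523 genes with a mean level of at least 3 and a span under 6 kb still lay below 0 (77.6%), with a median of -0.24, against 43.0% of 759 such genes spanning 25 kb or more, with a median of 0.06. Most other bright genes of short span therefore lay below 0 too. Immediate early genes have a median span of 4.66 kb and erythroid genes of 15.3 kb. In the LSK pair the bright genes ran from 0.28 under 3 kb to 0.15 at 100 kb and over, and the medians of the ribosomal protein (0.32), respiratory chain (0.32) and histone genes (0.80) lay above 0. What part RNA quality, amplification or gene span had in these values was not tested.

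**Figure D4:**
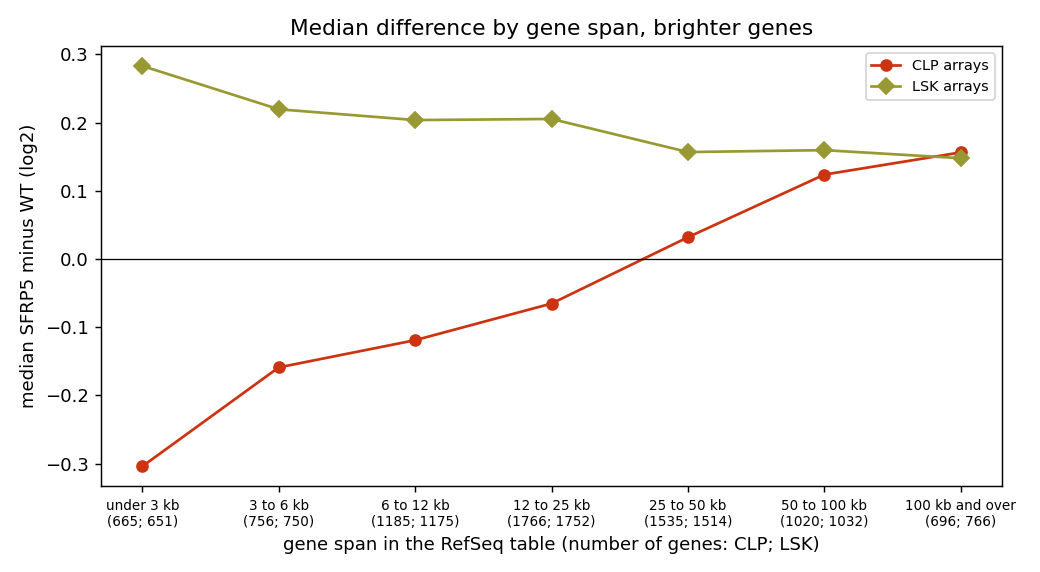
Median log2 difference between SFRP5 and WT by gene span, for genes whose brighter array of the pair reached its 75th percentile, in the CLP pair (red) and the LSK pair (olive), with the number of genes of each pair under each bin. The CLP median goes from -0.30 in the shortest to 0.16 in the longest genes, and the LSK median from 0.28 to 0.15.

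Cell cycle genes lay within 2-fold. Of 41 G1-S and DNA replication genes 31 lay below 0, against 53.5% of all genes, with a median of -0.19. After quantile normalization 24 lay below 0, with a median of -0.04, and after cyclic loess 26, with a median of -0.10. Mcm6, a helicase subunit, was at 7.52 and 7.5, Pcna, the sliding clamp, at 6.01 and 5.82, and the cyclin genes Ccne1 (3.04 and 2.19) and Ccnd1 (0.05 and -0.93) were lowest, while Cdk6 lay at 0.51. All 49 mitosis genes lay within 2-fold, with a median of -0.05 that was above 0 in 3 of 11 settings, from Cenpf (-0.79) and Ube2c (-0.75) to Ncapg (0.89). Mki67, a marker of cycling cells, was at 5.75 and 6.03. All 24 cyclin-dependent kinase inhibitor and quiescence genes lay within 2-fold too, with a median of 0.12, from Foxo3 at -0.81 to Ccng2 at 0.84.

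The pathway that SFRP5 acts on was described from ligands to targets. Counts of its lists stand beside 4.29% higher and 4.33% lower over all genes. Of 12 measured Wnt ligand and export genes 11 lay within 2-fold and 1 was lower, Wnt5b, at -0.91 and -2.31. Their median of 0.06 was below 0 in 3 of 11 settings. Wnt10b, a ligand made by haematopoietic cells, was at -1.33 and -0.64, Wnt5a, a noncanonical ligand, at 2.18 and 2.39, and Wls, which carries Wnt proteins to the cell surface, at 0.05 and 0.34. Of 19 secreted antagonist genes 6 were measured, all within 2-fold, with a median of 0.04 that was below 0 in 1 of 10 settings, and 11 were above background on neither array. Sfrp2 was above background on the SFRP5 array alone, Sfrp4 was at -2.20 and -1.86, and Dkk1, Sfrp1 and Wif1 were above background on neither.

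Receptors and regulators of receptor turnover gave 1 higher and 1 lower of 12 measured, with a median of -0.02 that was above 0 in 4 of 10 settings. Of the 27 on the array, a further 4 were above background on the WT array alone and 1 on the SFRP5 array alone. Over the 23029 autosomal genes counted without the filter on dim probes, these counts were 713 and 831. Fzd6, a Frizzled receptor, was at -2.28 and -0.60, a difference of 1.69, and -1.35 in LSK. The co-receptor genes Lrp6 (0.19 and 0.94) and Lrp5 (2.22 and 1.97) differed by 0.75 and -0.25. Znrf3, which removes Frizzled from the surface, was at -2.72 and -3.83. Rnf43, its partner in that role and a target of the pathway, was at -0.88 on the WT array and not well above background on the SFRP5 array, at least 16.2-fold lower, the largest bound among named genes lower on that array. It was also not measured on both LSK arrays.

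Of 39 intracellular Wnt components 2 were higher, 1 lower and 36 within 2-fold, with a median of 0.23, or -0.22 over the next probe of 23 members. Ctnnb1, which encodes β-catenin, was at 4.88 on both arrays. Bcl9, a cofactor of β-catenin, was at 1.89 and 3.20, a difference of 1.30, with 1.57 on its next probe. Ctnnbip1, which blocks β-catenin from its DNA-binding partners, was at -1.11 and -0.04, and Csnk1g2, a casein kinase, at 2.57 and 1.54. Kinase and scaffold genes of the destruction complex stayed near 0, with Gsk3b at 0.47, Apc at 0.35, Gsk3a at -0.04, Csnk1a1 at -0.09 and Axin1 at -0.20.

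Targets of canonical signalling gave 0 higher and 1 lower (Znrf3) of 16 measured. Their median of 0.16 was below 0 in 3 of 11 settings. Axin2, the standard read-out of the pathway, was at -3.24 on the WT array and not well above background on the SFRP5 array. Lef1 (0.77), Tcf7 (0.64, and -1.69 on its next probe) and Sox4 (3.61 and 4.33, difference 0.72) lay above 0, and Ccnd1 (-0.99) and Ppard (-0.86) below it. The 4 members above background on the WT array alone were Axin2, Rnf43, Sp5 and Dact1, and Ascl2 was above background on the SFRP5 array alone. The list has 28 genes on the array. Of the 23029 autosomal genes counted without the filter on dim probes, 713 were above background on the WT array alone and 831 on the SFRP5 array alone. Among the 16 targets measured on both arrays no common direction was seen, with 10 above 0 and 6 below.

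The noncanonical branch held more differences. Of 31 genes 7 were at least 2-fold higher, against 4.29% of all genes, 1 lower, against 4.33%, and 23 within 2-fold, with a median of 0.23. Prkca, a calcium-dependent protein kinase C, was at -0.47 and 1.37, a difference of 1.84 with 0.90 on its next probe. Prickle1, a planar cell polarity gene, was at -0.94 and 0.57. The phospholipase genes Plcb1 (1.61) and Plcb4 (1.15), Camk2g (0.60 and 1.71), Nfatc1 (0.54 and 1.59) and Nfatc2 (1.17), of the calcium branch, were higher, and Plcb3 (0.01 and -1.0) was lower. Of these, the next probe gave 0.68 for Plcb4, 0.62 for Nfatc1, 0.23 for Plcb1 and -0.22 for Nfatc2. For Plcb1 that next probe was brighter on both CLP arrays (-1.76 and -1.53) than the probe that stands for the gene (-4.20 and -2.59). The GTPase genes Rac1 (0.05), Rhoa (-0.12) and Cdc42 (-0.43), which serve many pathways, lay within 2-fold. In LSK 6 of 30 were higher, against 6.62% of all genes there, and 1 lower, against 7.14%, with Plcb1 at 3.16, Prickle1 at 1.94, Prkca at 1.15 and Plcb4 at 1.05.

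Other signalling lists had medians near 0 on the probe that stands for each gene. Their counts stand beside 4.29% higher and 4.33% lower over all genes. Of 27 Notch pathway genes 1 was higher (Numbl, 1.77) and 1 lower (Nrarp, a target and inhibitor of Notch, at -0.14 and -1.51). Their median of -0.05 was above 0 in 4 of 11 settings. Notch1, the receptor that directs progenitors to the T lineage, was at 0.61 and 1.02, and its target Hes1 at -0.38 and 0.17. Of 24 TGF-beta and BMP genes 2 were higher, Acvr2b (1.85) and Tgfbr2 (1.75, and 0.02 on its next probe), and 1 lower, Acvr1 (-1.22, and 0.76 on its next probe), with a median of 0.01 that was below 0 in 3 of 11 settings. Over the next probe of 10 TGF-beta and BMP members the median was 0.46, with 9 above 0, and over that of 9 Notch pathway members 0.16. Of 33 cytokine receptor genes 1 was higher, Tnfrsf1b, a TNF receptor, at 1.43 and 2.58, and 2 were lower, Il12rb2 (-1.54, with -2.5 on its next probe) and Lifr (-1.07), with a median of 0.11. Of 24 homing receptor and adhesion genes 1 was higher (S1pr1, a receptor that guides exit from tissue, at 1.07) and 2 lower (Ccr7 and S1pr4, the latter at 0.43 and -0.84), with a median of -0.10. Cxcr4, which holds progenitors in the marrow, was at 5.33 and 5.38.

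Growth, stress and survival genes gave single members rather than a shift. Their counts stand beside 4.29% higher and 4.33% lower over all genes. Of 31 MYC and ribosome biogenesis genes 0 were higher and 2 lower (Mxd4, -1.37, and 0.49 on its next probe, and Rrp9, -1.06), with a median of -0.09 that was above 0 in 3 of 11 settings. All 24 glycolysis genes lay within 2-fold (median 0.07), with Pfkfb3 highest, at 2.01 and 3.0. Of 20 sterol synthesis genes 0 were higher and 2 lower (Sc5d, -1.27, and Fdft1, -1.01), with a median of -0.14. Among 21 ATF4 and amino acid stress genes Trib3, a pseudokinase, was higher (-3.62 and -1.37) and Sesn2 lower (1.06 and -0.84), with a median of -0.19. Among 19 p53 target genes Plk2 (2.04) and Pmaip1, which encodes NOXA (1.99), were higher, and Phlda3 (-2.79), Perp (-2.5) and Sesn2 (-1.90) were lower, with a median of 0.26. Of 16 BCL2 family genes Pmaip1 was higher and Bcl2l11, which encodes BIM, lower (-0.16 and -1.55, but 0.99 on its next probe), while Bcl2 (2.73 and 2.57) and Mcl1 (4.47 and 4.53) lay within 2-fold and the median was 0.10. Among 18 metallothionein and zinc genes Slc39a4 was higher (1.76) and Mt2 (4.81 and 3.77) and Slc39a3 (-1.1) lower, with a median of 0.03. Among 29 Polycomb and DNA methylation genes Kdm6b, a histone demethylase, was higher (1.05) and Pcgf2 (-1.51) and Jarid2 (-1.05) lower, with a median of 0.28, or -0.00 over the next probe of 12 members.

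**Figure D5:**
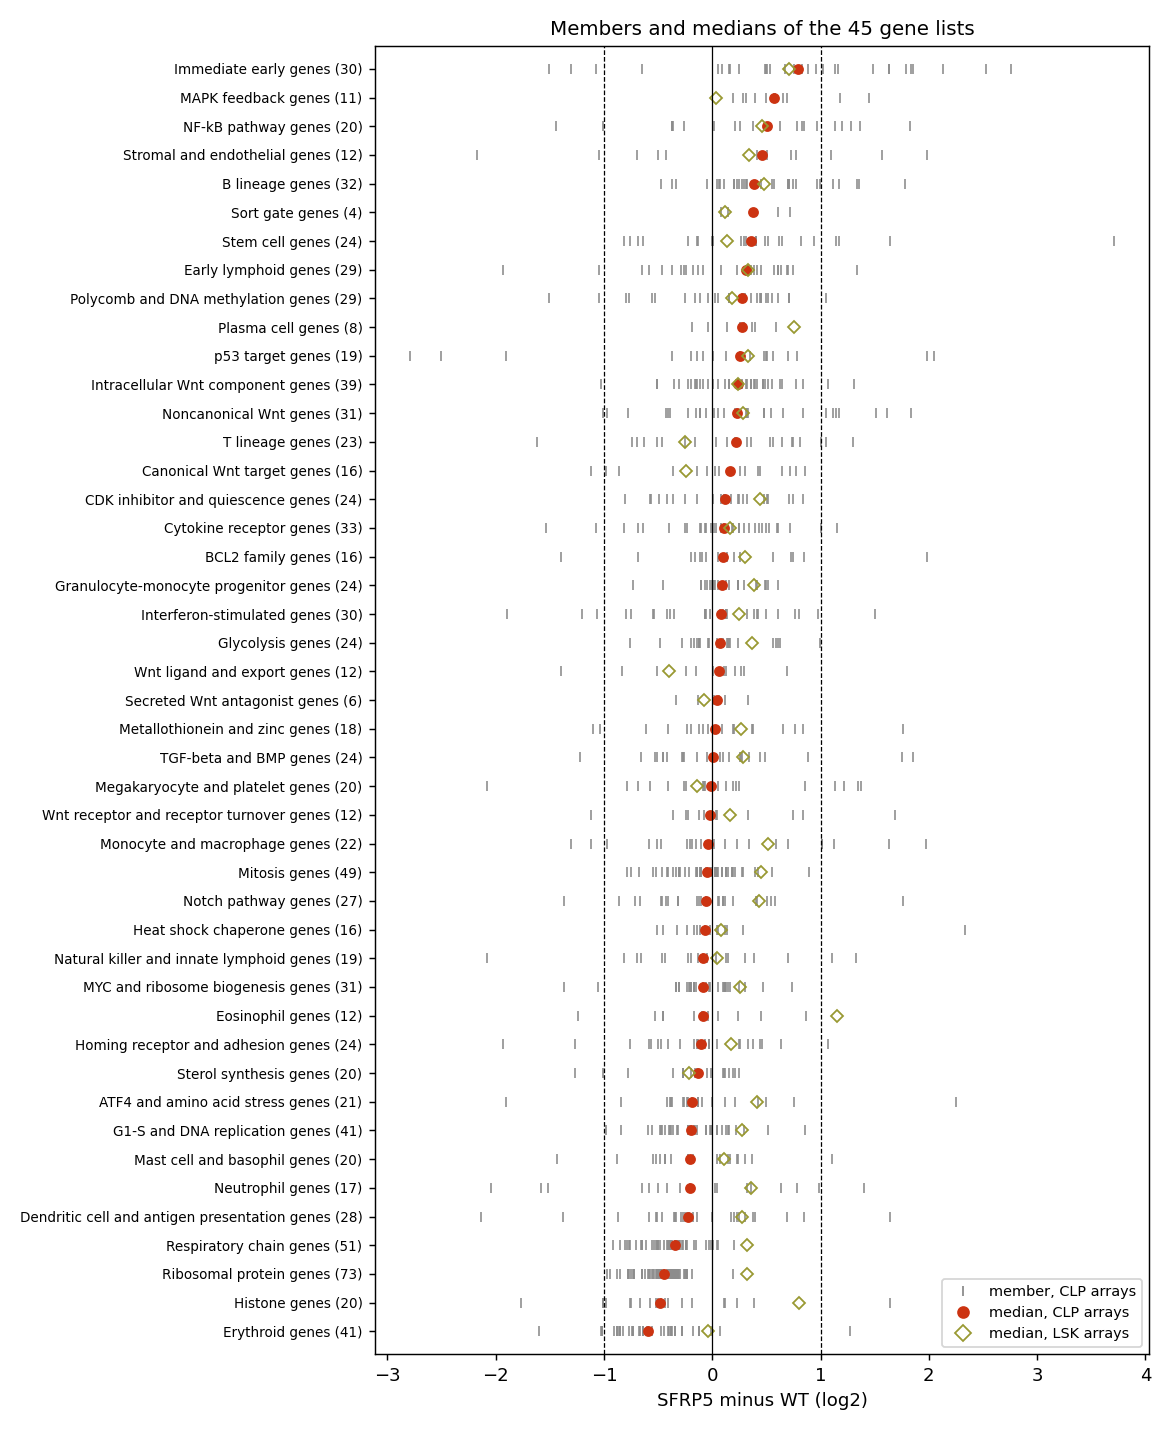
Log2 difference between SFRP5 and WT of every measured member (grey ticks) of the 45 gene lists in the CLP pair, with the median of each list in the CLP pair (red circles) and in the LSK pair (open diamonds), ordered by the CLP median, and dashed lines at 2-fold. Medians run from -0.60 for erythroid genes to 0.79 for immediate early genes, and the ribosomal protein, respiratory chain and histone lists lie below 0 in CLP and above 0 in LSK.

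Among single genes whose brighter array reached its 75th percentile, Als2cl, which encodes a RAB5-binding protein, had the highest difference, from -2.89 to 0.36 (3.25). Aldh5a1, an enzyme of GABA breakdown, followed with -2.68 and 0.34, then Fndc9 with -2.23 and 0.56. Klhl1 (2.65), Rab2b (2.61), Fosb (2.53), Cdon, a Hedgehog co-receptor (2.51), Plekha7 (2.38), Sh3d21 (2.29) and Esrra, a regulator of mitochondrial genes (2.26), completed the 10 highest. Except for Fosb these genes stood below the 75th percentile on the WT array, and except for Plekha7, whose next probe gave -2.34, no other probe above background exists for them. In LSK Als2cl (-0.07), Aldh5a1 (-0.09) and Rab2b (-0.18) lay near 0, and Klhl1 (1.89), Plekha7 (2.17) and Fosb (3.0) were high again.

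The lowest was Adam33, a metalloprotease gene, at 2.46 and -0.12, with all 3 of its probes below 0 (-2.58 to -0.60). Perp, a p53 target of cell junctions, was at 0.40 and -2.10 and Mogat2, an acyltransferase, at 0.06 and -2.09. Lynx1 (-2.11), Camp, the cathelicidin antimicrobial peptide (-2.04), Smim1, which carries the Vel blood group (-2.0), Dhx34 (-1.98), Sesn2 (-1.90), Pramel12 (-1.74) and Zfp41 (-1.71) completed the 10 lowest. The next probe gave -1.81 for Camp but 0.35 for Lynx1 and 1.41 for Dhx34, so the direction of the last pair depends on the probe.

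Brighter genes on which several probes pointed the same way were ranked by the smallest of their differences. The highest was Gem, a small GTP-binding protein, at -1.53 and 0.41, with probes from 1.75 to 1.95. Tubb2b, a β-tubulin (1.5 to 1.85), Mgam (1.44 to 1.49), Snx30 (1.37 to 1.45), Lrrk2, a kinase (1.31 to 1.5), Bcl9 (1.30 to 1.57), Cideb (1.30 to 1.48), Map7 (1.12 to 1.30), B4galt6 (1.1 to 1.13) and Parp4 (1.07 to 1.18) followed. At the other end stood Camp (-2.04 to -1.81), Lhpp (-1.62 to -1.39), the transglutaminase Tgm2 (2.71 and 1.58, -1.32 to -1.13), Mgst3, a glutathione transferase (3.61 and 2.48, -1.56 to -1.13), Psd (-1.18 to -1.12), Sac3d1 (-1.24 to -1.1), Pdia2 (2.97 and 1.81, -1.16 to -1.1), Isg20 (-1.12 to -1.06), Nfyc, a subunit of the factor NF-Y (-1.05 to -1.01), and Zfp526 (-1.73 to -0.97). Probes of 1 gene on 1 array share their RNA and are no replicates.

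How far probes repeat each other was counted over all genes. Of 273 genes at least 2-fold different that have a next probe above background, 177 pointed the same way on it (64.8%) and 59 were also at least 2-fold different (21.6%). For genes within 2-fold 61.4% pointed the same way. Where both probes were bright, 26 of 29 genes pointed the same way (89.7%) and 12 were 2-fold again (41.4%). Of the 1618 genes within 2-fold in that set, 68.9% pointed the same way. The share that repeated was thus higher in the set with bright probes, a count with no test. By bounds, Syde1 was at least 26.2-fold higher, Izumo3 at least 21.5-fold and Cep112 at least 19.5-fold, being above background on the SFRP5 array alone. Rnf43 (16.2-fold), Gsg1 (12.5-fold) and Nol3 (12.4-fold) were at least that much lower, being above background on the WT array alone. For a bound, the dim array was given the lowest signal of any probe above background on it, or the gene's own signal where that was higher. That lowest signal (-4.91 on the SFRP5 array) is no detection limit, since Arc at -4.79 there was not called above background. A bound thus holds only for the fill value used.

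The LSK pair shares no array with the CLP pair but is no replicate of it, since the same mice may have given both. Of genes at least 2-fold higher in the CLP pair, 584 were measured in both sorts, and 49.1% of them lay above 0 in LSK, against 52.3% of all genes. At least 2-fold, 13.9% were higher and 17.5% lower in LSK, against 6.36% and 6.64% of all genes. Of 580 genes lower in CLP 47.6% lay below 0 in LSK, 14.0% at least 2-fold lower and 17.4% at least 2-fold higher. The shares past 2-fold in LSK were thus above those of all genes in both directions, which is a description with no test. Among brighter genes, 18.5% of 178 genes higher in CLP were also at least 2-fold higher in LSK and 18 of the 178 at least 2-fold lower, against 5.37% and 2.43% of all such genes. Of 153 brighter genes lower in CLP 5.88% were also lower and 22.9% were higher in LSK, against 2.43% and 5.37%. Over all genes 13.8% were past 2-fold in the LSK pair and 8.62% in the CLP pair.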

How the data were processed

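RNA of sorted bone marrow cells was hybridised to 4 single-colour arrays, of which the 2 CLP arrays are compared here and the 2 LSK arrays are set beside them. Spot intensity in the deposited scanner output had been background-subtracted and spatially detrended with Agilent Feature Extraction 10.10.1.1, on a grid for mm9, per the file headers; the submitters' processing notes name version 10.10. A signal table deposited by the authors gave gene symbols and chromosome bands, and its values are the same intensity scaled by 5.86 (WT CLP) or 4.91 (SFRP5 CLP), as computed here. Their deposited ratio table was not used. All 4 arrays lie on 1 slide and were scanned in 1 session, per the file headers.

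From the log2 processed intensity of 59305 spots that are no controls, that of the array's 75th percentile was subtracted (227.2 for WT CLP and 290.9 for SFRP5 CLP). Outlier spots (148 and 128) were left out, no spot was saturated, and spots of a probe were averaged. On the WT CLP array 65.7% of probes were well above background, and on the SFRP5 CLP array 66.1%. Symbols of 3525 of 33325 named probes were brought up to date through Entrez IDs and the RefSeq table (GRCm38.p6), which also gave gene spans (14370 of 15255 genes). A gene was represented by its brightest probe, by mean signal, and the next probe is the next brightest above background on both arrays. Of 15941 genes above background on both arrays, 536 on sex chromosomes and 150 without a band were left out, and 831 and 713 autosomal genes were above background on the SFRP5 or the WT array alone. Differences were counted at 2-fold with no test, since the number of arrays limits the precision. Scripts were tested on simulated data.

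The comparison, the 45 gene lists (1282 of 1296 entries on the array) and the naming rule were chosen with earlier results of these data known. The rule takes, from autosomal genes (clone names and predicted genes left out), the 10 highest and 10 lowest brighter genes, the 10 highest and lowest brighter genes with 2 or more probes all pointing the same way, the 3 highest and lowest bounds, the 2 highest and 2 lowest members of each list, and all gate, immediate early and globin genes and Sfrp5. Alternatives were normexp (offset 50), quantile and cyclic loess normalization (limma 3.58.1 in R 4.3.3), scaling by the median, the authors' table, other filters and probe choices, and all chromosomes. Normexp was run on the median spot signal, where the plan named the mean signal, which is not among the columns used here. Python 3.11.15 with pandas 2.3.3 and numpy 2.4.6 did the rest. Some genes of the lists are counted but not reported here by name.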

Additional observations from a re-analysis of the deposited data

Results flagged for a closer look

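Some results pointed in opposite directions in the CLP and LSK pairs. The difference between the sorts was not tested in any of them. Among the named genes, Smim1 was at -2.0 in CLP and 1.30 in LSK, Dhx34 at -1.98 and 1.79 (its next probe gave 1.41 in CLP), Sesn2 at -1.90 and 1.65, Sac3d1 at -1.24 and 1.2 and Tgm2 at -1.13 and 1.19. In the other direction, Tubb2b was at 1.85 in CLP and -1.77 in LSK, and Lrrk2 at 1.5 and -1.58. For Sac3d1, Tgm2, Tubb2b and Lrrk2 both probes pointed the same way in CLP. Among the gene lists, the median of the histone genes was -0.49 in CLP and 0.80 in LSK, that of the ribosomal protein genes -0.45 and 0.32, and that of the respiratory chain genes -0.35 and 0.32.

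Probes without a gene symbol carried signal too. Of 20967 such autosomal probes, 12183 were well above background on both CLP arrays, 609 were at least 2-fold higher on the SFRP5 array and 608 at least 2-fold lower, with a median of -0.08. They were not named and are not analysed further.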

How the results depend on the processing

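No paired analysis was possible because each group has 1 array, and for the same reason no array could be left out. Of 2309 values of 237 named genes under the alternatives, 2029 moved by no more than the spread between repeated spots (0.13 log2 for a difference), 273 moved by more and 7 reversed, counting as reversed only a gene past 2-fold that changed sign. For the medians of 45 lists these numbers were 418, 53 and 12 of 483, counting as reversed only a median farther than 0.13 from 0 that changed sign. Some medians nearer 0 and some differences under 2-fold also changed sign and are not among these. For a named gene several alternatives could not change the value. The filters and the use of all chromosomes leave it as it is, as does averaging where a gene has 1 probe. Scaling by the median and the authors' table shift all genes alike, by less than 0.13. The count of unmoved values is thus no measure of robustness. With normexp, the dim Adipoq went from 1.57 to 0.19. The 654 higher and 661 lower genes became 165 and 152 with normexp, 1590 and 1937 without the filter on dim probes, 182 and 156 over brighter genes, and 194 and 263 over next probes, which exist for 4202 genes. The use of next probes was added after seeing the data. Of the genes past 2-fold 49.7% were higher, against 60.0% in the authors' table.

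The immediate early median of 0.79 became 0.60 without the filter, 1.02 over brighter genes and 0.21 over next probes. The B lineage median of 0.39 became 0.55 over brighter genes and 0.61 over next probes. Brighter genes are taken by their brighter array, and some members enter through the SFRP5 array alone. Medians over brighter genes are thus no independent check of a direction. The erythroid median of -0.60 became -0.46 with quantile normalization and -0.43 over next probes. The ribosomal protein median of -0.45 became -0.22 with quantile normalization and -0.25 with cyclic loess, and the respiratory chain median of -0.35 became -0.50 over next probes.

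Next probes reversed Acvr1 (0.76), Bcl2l11 (0.99), Dhx34 (1.41), Lynx1 (0.35), Mxd4 (0.49), Nr4a2 (-0.86) and Plekha7 (-2.34), and the medians of intracellular Wnt components (-0.22), mast cell and basophil (0.49), NF-kB pathway (-0.0442), Polycomb and DNA methylation (-0.0008), stem cell (-0.23), T lineage (-0.49) and p53 target genes (-0.35). The median of Canonical Wnt target genes reversed with normexp (-0.0022), without the filter and when the probes of a gene were averaged (-0.0157 for both), that of stromal and endothelial genes with normexp (-0.0055), and that of mast cell and basophil genes over genes above background on all 4 arrays (0.0399). Next probes change the probe and the number of genes, and for the other alternatives the cause was not tested. Signal over background limits the dim genes most, where 2-fold differences are most frequent.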
